A study of Mus musculus with 18 samples.

Results

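The AP-1 and EGR immediate early genes described here were 10 genes of the mouse kidney transcriptome, chosen by symbol: Fos, Fosb, Jun, Junb, Egr1, Egr2, Egr3, Atf3, Ier2 and Ier3. They were 10 of the 32675 genes in the deposited table, each on 1 row, and all 10 passed the filter on low counts. RNA of the right kidney was sequenced from 18 wild-type male C57BL/6 mice that were 6 weeks old on arrival, with 6 mice in each of 3 groups, and the question was how chronic social defeat and fluoxetine change the kidney transcriptome. The Ctrl mice were handled daily and were not defeated. The PBS mice went through chronic social defeat stress (CSDS), in which an aggressive CD-1 mouse attacked them for 10 min per day over 14 days, and were injected with phosphate-buffered saline. The FLX mice went through the same defeats and were injected intraperitoneally with fluoxetine, a selective serotonin reuptake inhibitor, at 10 mg per kg per day. The Ctrl mice had neither defeat nor drug, and no group of undefeated mice given fluoxetine was used here. The FLX mice therefore differed from the Ctrl mice in both. The methods describe injections for the PBS and FLX mice only, so defeat and injection cannot be told apart in PBS against Ctrl. A forced swim test and a sucrose preference test are also described, for mice of every group. The text of the methods does not give the time from the last defeat, injection or behaviour test to kidney collection. How far the levels reflect events close to collection was not tested. All values come from whole kidney, in which fewer cells of a type and less RNA per cell cannot be told apart.

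Immediate early genes are transcribed within minutes of a stimulus without new protein synthesis, and their short-lived messages fall again soon after. Growth factors, stress kinases, calcium and cyclic AMP reach them through MAP kinases and through factors that sit on their promoters in advance, such as SRF with its TCF partners and CREB. FOS proteins pair with JUN proteins to form the AP-1 dimer, ATF3 joins the same dimer family and acts mainly as a repressor, and the EGR proteins are zinc finger factors that bind GC-rich sites and induce their own NAB corepressors. In the kidney these genes are known to respond strongly to ischaemia, to mechanical handling and to growth factors.

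The promoters of 4 members are shown because they hold the cyclic AMP response element (CRE) core TGACG, the motif found in most members of those searched. RefSeq promoters of build GRCm38.p6 were on hand for 7 of the 10 members (Fos, Fosb, Jun, Junb, Egr2, Atf3 and Ier3), as 300 bases from 250 before to 50 after the start. Each line gives the 150 bases just before the RefSeq start, 5′ to 3′ on the strand of the gene, with TGACG or its reverse complement, the TATA box TATAAA and the EGR motif GCGNGGGCG in capitals.
Fos, chr12:85473740-85473889, plus strand: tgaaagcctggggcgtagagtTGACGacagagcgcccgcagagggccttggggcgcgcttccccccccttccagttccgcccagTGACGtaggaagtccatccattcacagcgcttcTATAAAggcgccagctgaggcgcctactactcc
Fosb, chr7:19310046-19310195, minus strand: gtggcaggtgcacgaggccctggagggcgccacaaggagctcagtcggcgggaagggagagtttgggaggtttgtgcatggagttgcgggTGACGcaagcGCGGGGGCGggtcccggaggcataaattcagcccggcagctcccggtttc
Junb, chr8:84978749-84978898, minus strand: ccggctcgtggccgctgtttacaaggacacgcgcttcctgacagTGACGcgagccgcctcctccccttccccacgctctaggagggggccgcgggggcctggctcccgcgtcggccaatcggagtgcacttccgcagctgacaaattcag
Atf3, chr1:191183334-191183483, minus strand: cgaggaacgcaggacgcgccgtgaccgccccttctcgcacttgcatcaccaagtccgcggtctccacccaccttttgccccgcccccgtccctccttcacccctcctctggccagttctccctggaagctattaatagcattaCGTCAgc
Within the 300 bases TGACG was found on either strand in 4 of the 7 member promoters and in 20.9% of the 27018 promoters of the same length. Fos held it at positions -129 and -66 from the start and the TATA box at -33. Fosb held TGACG at -60 and the EGR motif at -50, a motif present in 5.53% of all promoters. Junb held TGACG at -106 and TATAAA at the RefSeq start itself, outside the printed bases. The deposited annotation begins Junb downstream of that start, at 84978718, so both motifs lie farther before the deposited start. TATAAA occurred in 14.2% of all promoters. Atf3 held the reverse complement of TGACG at -7. The full CRE palindrome TGACGTCA (1.85% of all promoters), the AP-1 site TGANTCA (7.92%) and the CArG box bound by SRF (1.59%) were in none of the 7 windows, which says only that these letters do not occur there.

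The deposited estimated counts summed to 73000203 to 78650116 in the Ctrl mice, 72149987 to 78711121 in the PBS mice and 48928823 to 79061296 in the FLX mice. PBS replicate 6 was left out of the values called PBS below, unless it is named, because the study removed 1 PBS mouse with high inflammatory genes without numbering it, and replicate 6 stood apart in that way. Its summed FPKM of 10 neutrophil markers was 66.5, against 7.24 to 26.2 in the other PBS mice, 1.44 to 3.35 in Ctrl and 0.453 to 5.74 in FLX. The 8 kidney epithelium markers summed to 1818 to 2419 FPKM in every mouse, and the labelled tissue held its defining markers.

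The members did not move as 1 block between the groups. Atf3 rose in the defeated PBS mice, Ier2 was lower in every FLX mouse than in every Ctrl mouse, and 8 of the 10 members, all but Jun and Ier3, differed at least 4.70-fold among the 5 PBS mice. PBS replicates 1 and 4 were the 2 highest of the 6 PBS mice for 7 members (Fosb, Junb, Egr1, Egr2, Egr3, Atf3 and Ier2), and for 6 of these they were the 2 highest of all 18 mice. PBS replicate 2 lay below every Ctrl mouse for 8 members, all but Jun and Atf3, and PBS replicate 3 lay below every Ctrl mouse for 5.

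**Figure D1:**
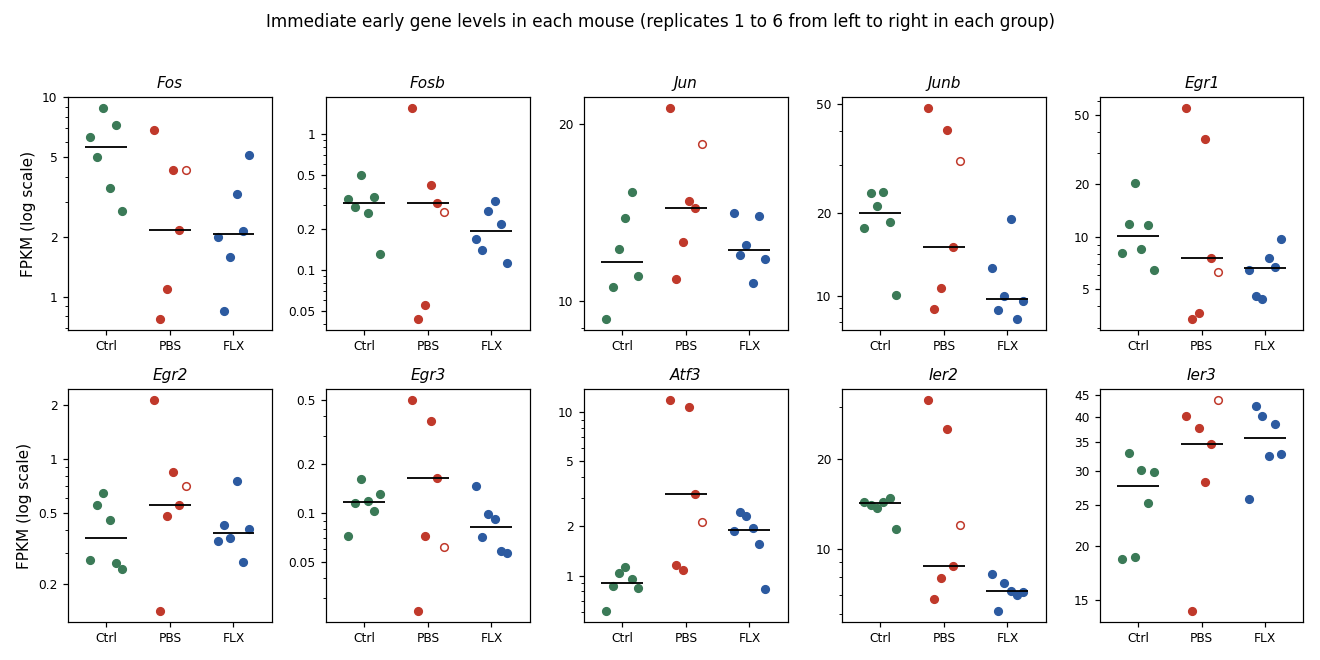
FPKM of the 10 members in each of the 18 mice (log axis, 1 panel per gene), by group, with bars at the median of the 6 Ctrl, 5 PBS and 6 FLX mice and an open symbol for PBS replicate 6. PBS replicates 1 and 4 stand above the other mice for Junb, Egr1, Egr2, Egr3, Atf3 and Ier2, while the FLX mice of Ier2 all lie below the Ctrl mice.

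Fos encodes the best known partner of JUN in AP-1 and lies on chromosome 12 (GRCm38, 85473890 to 85477273, plus strand). Its level was 2.70 to 8.87 FPKM in the 6 Ctrl mice, with a median of 5.67. In PBS replicates 1 to 5 it was 6.87, 0.774, 1.10, 4.32 and 2.17 FPKM, with 4.33 in replicate 6. The FLX mice ranged from 0.854 to 5.13 FPKM around a median of 2.07. PBS replicates 2, 3 and 5 and 4 of the 6 FLX mice lay below every Ctrl mouse, and no defeated mouse lay above the highest Ctrl mouse. FLX replicates 4 and 6 lay within the Ctrl range. Fos was the only member with a PBS mean below the Ctrl mean in the fit across all genes (log2 difference -0.85, SE 0.50, edgeR adjusted p = 0.41), and the difference did not pass the test. FLX was lower than Ctrl by a log2 difference of -1.27 (SE 0.48, edgeR adjusted p = 0.15), which did not pass either, and FLX against PBS gave -0.42 (SE 0.50, edgeR adjusted p = 0.84).

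Fosb, a second FOS family member, lies on chromosome 7 (19302696 to 19310051, minus strand) and was low in every group. It was 0.132 to 0.50 FPKM in Ctrl (median 0.312) and 0.112 to 0.322 FPKM in FLX (median 0.193). Among PBS replicates 1 to 5 it was 1.56, 0.0433, 0.0549, 0.424 and 0.308 FPKM, and 0.265 in replicate 6. PBS replicate 1 was the highest of all mice and PBS replicates 2 and 3 were the 2 lowest, so the PBS mice spread on either side of both other groups. The counts behind the lowest values were 25 in PBS and 43 in FLX. No comparison passed the test, and the PBS against Ctrl value of 0.65 (log2, SE 0.63) turned to -0.55 without PBS replicate 1.

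Jun, the founding JUN family gene, is a gene of 1 exon on chromosome 4 (95049034 to 95052222, minus strand) and varied little between groups. Ctrl mice held 9.32 to 15.4 FPKM with a median of 11.7, and FLX mice held 10.7 to 14.1 FPKM with a median of 12.2. The PBS mice held 21.4, 10.9, 12.6, 14.8 and 14.4 FPKM, and replicate 6 held 18.5. Only PBS replicates 1 and 6 lay above every Ctrl mouse, and the 3 groups overlapped. The log2 differences were 0.30 for PBS against Ctrl (SE 0.16, edgeR adjusted p = 0.34) and -0.34 for FLX against PBS (SE 0.16, edgeR adjusted p = 0.45).

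Junb, whose product is a weaker activator that can hold back JUN, has 1 exon on chromosome 8 (84976910 to 84978718, minus strand). In Ctrl it ranged from 10.1 to 23.9 FPKM with a median of 19.99, and in FLX from 8.22 to 19.1 FPKM with a median of 9.77. PBS replicates 1 to 5 held 48.5, 8.99, 10.6, 40.1 and 15.0 FPKM, and replicate 6 held 31.0. PBS replicates 1, 4 and 6 were above every Ctrl mouse and PBS replicate 2 was below every one, whereas 4 of the 6 FLX mice were below every Ctrl mouse. PBS against Ctrl gave a log2 difference of 0.39 (SE 0.38, edgeR adjusted p = 0.66). FLX was lower than PBS by a log2 difference of -1.24 (SE 0.38, edgeR adjusted p = 0.16) and lower than Ctrl by -0.85 (SE 0.37, edgeR adjusted p = 0.20), neither of which passed. In a fit of FLX and Ctrl alone, where the spread of the PBS mice does not enter, the FLX against Ctrl difference passed (edgeR adjusted p = 0.046).

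Egr1, the EGR factor most often used as a marker of recent stimulation, lies on chromosome 18 and had the widest absolute range of the members. It was 6.46 to 20.3 FPKM in Ctrl (median 10.1) and 4.37 to 9.66 FPKM in FLX (median 6.59). In PBS replicates 1 to 5 it was 54.7, 3.37, 3.63, 36.1 and 7.55 FPKM, with 6.32 in replicate 6. PBS replicates 1 and 4 were above every other mouse and PBS replicates 2 and 3 were below every other mouse, and the PBS mean of 21.1 ± 23.2 FPKM (SD, n = 5) lay between these extremes. The FLX against PBS difference was -1.82 (log2, SE 0.57, edgeR adjusted p = 0.17) and the PBS against Ctrl difference was 0.96 (SE 0.57, edgeR adjusted p = 0.40). Neither passed, and without PBS replicate 1 they were -1.09 and 0.24. Of the 6 FLX mice 3 lay below every Ctrl mouse.

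Egr2 (chromosome 10, 67535475 to 67542188, plus strand) and Egr3 (chromosome 14, 70077203 to 70082614, plus strand), EGR factors best known in nerve, muscle spindle and lymphocytes, were low in kidney. Egr2 was 0.241 to 0.644 FPKM in Ctrl (median 0.363), 2.12, 0.141, 0.477, 0.840 and 0.549 FPKM in PBS replicates 1 to 5, and 0.265 to 0.752 FPKM in FLX (median 0.384). Egr3 was 0.0722 to 0.162 FPKM in Ctrl (median 0.117), 0.50, 0.0249, 0.0722, 0.371 and 0.165 FPKM in PBS replicates 1 to 5, and 0.0570 to 0.146 FPKM in FLX (median 0.0818). In PBS replicate 6 they were 0.699 and 0.0620 FPKM. Both genes had their 2 highest values in PBS replicates 1 and 4 and their lowest in PBS replicate 2, with Egr3 resting on 10 counts there and 190 in PBS replicate 1. Egr2 was 1.06 higher in PBS than in Ctrl on the log2 scale (SE 0.47, edgeR adjusted p = 0.24) and Egr3 was 0.97 higher (SE 0.52, edgeR adjusted p = 0.35), and neither passed the test in any of the 3 comparisons. Without PBS replicate 1 these differences were 0.33 for Egr2 and 0.46 for Egr3.

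Atf3, the stress-induced member of the ATF/CREB family, was the member that passed the test between PBS and Ctrl. The gene as the table gives it runs from 191170296 to 191218039 on the minus strand of chromosome 1, and the RefSeq start of the printed promoter lies inside it. Its level was 0.606, 0.859, 1.03, 1.13, 0.951 and 0.834 FPKM in Ctrl replicates 1 to 6. It was 11.9, 1.15, 1.08, 10.8 and 3.18 FPKM in PBS replicates 1 to 5 and 2.14 in replicate 6. In FLX replicates 1 to 6 it was 1.86, 2.44, 2.32, 1.96, 1.55 and 0.831 FPKM. Every PBS mouse except replicate 3 was above every Ctrl mouse, and replicate 3 lay between the 2 highest Ctrl mice. PBS replicates 2 and 3, which were below the Ctrl mice for Fos, Fosb, Egr1 and Ier2, did not fall below them for Atf3. PBS was 2.68 higher than Ctrl on the log2 scale (SE 0.53, edgeR adjusted p = 0.0080), and 2.51 higher with replicate 6 included (SE 0.53, edgeR adjusted p = 0.012). It did not pass with limma on log2(FPKM + 1), where the difference was 1.37 (adjusted p = 0.066), or in edgeR with the replicate number as a block (2.17, adjusted p = 0.086). An exact two-sided permutation test of the mean log2(FPKM + 0.1) gave p = 0.0043, unadjusted, where the smallest p that 5 against 6 mice can give is 0.0022.

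The median Atf3 level of the FLX mice, 1.91 FPKM, lay between the medians of the Ctrl mice (0.905) and of the PBS mice (3.18). All but FLX replicate 6 were above every Ctrl mouse, and the FLX range lay within or below the PBS range. FLX against Ctrl gave 0.94 (log2, SE 0.49, edgeR adjusted p = 0.29) in the fit of all groups and passed in a fit of the FLX and Ctrl mice alone (edgeR adjusted p = 0.047). FLX against PBS gave -1.74 (SE 0.51, edgeR adjusted p = 0.14), which did not pass. FLX replicate 6 was the FLX mouse with the highest Fos and the lowest Atf3.

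Ier2, a small nuclear protein gene with 1 exon on chromosome 8 (84661331 to 84662854, minus strand), was the member that set the FLX mice apart from the Ctrl mice. Ctrl replicates 1 to 6 held 14.4, 14.1, 13.8, 14.4, 14.8 and 11.6 FPKM. The FLX mice held 8.22, 6.15, 7.65, 7.21, 6.99 and 7.15 FPKM. PBS replicates 1 to 5 held 31.8, 6.77, 7.95, 25.3 and 8.75 FPKM, with 12 in replicate 6. The Ctrl and FLX groups were tight and did not overlap, whereas 3 of the PBS mice were below every Ctrl mouse and 2 were above every Ctrl mouse. FLX against Ctrl gave -1.02 on the log2 scale (SE 0.31, edgeR adjusted p = 0.071) in the fit of all groups, which did not pass, and an exact two-sided permutation p of 0.0022, unadjusted and the smallest that 6 against 6 mice can give. In a fit of the FLX and Ctrl mice alone the same difference of -1.02 passed (edgeR adjusted p = 1.5e-04), as it did by DESeq2 on all groups (adjusted p = 0.031). FLX against PBS gave -1.27 (SE 0.32, edgeR adjusted p = 0.080), which did not pass, and -1.27 by DESeq2, which did (adjusted p = 0.018). FLX replicates 3 to 6 had lower sequencing depth than all other mice, and the 2 deeper FLX mice, replicates 1 and 2, held the highest and the lowest Ier2 of the FLX group.

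Ier3, which codes for a small stress-induced protein tied to cell survival, lies on chromosome 17 (35821684 to 35822923, plus strand) and departed from the pattern of the others. It was 18.6 to 33 FPKM in Ctrl (median 27.6) and 25.7 to 42.5 FPKM in FLX (median 35.7). PBS replicates 1 to 5 held 40.2, 14.1, 37.7, 28.2 and 34.6 FPKM, and replicate 6 held 43.9, the highest of all mice. PBS replicate 4, which was high for Egr1 and Atf3, lay among the Ctrl mice, and PBS replicate 3, which was low for Egr1, lay above them. The groups overlapped in all 3 comparisons and none passed the test. FLX was 0.36 higher than Ctrl on the log2 scale (SE 0.21, edgeR adjusted p = 0.36).

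Across the list, 1 of the 10 members passed edgeR's quasi-likelihood test with Benjamini-Hochberg adjustment for PBS against Ctrl (Atf3, higher), where 3.81% of the 20251 genes tested passed in either direction and 2.14% were higher. At an unadjusted p under 0.05 there were 2 members, Egr2 and Atf3, against 17.9% of all genes. The median log2 difference of the 10 members was 0.52, against -0.01 over all genes tested, and 9 of the 10 values were above 0, against 48.9% of all genes. These rested on PBS replicate 1: without it the median was 0.13 and 6 of the 10 values were above 0. With PBS replicate 6 included Atf3 was again the 1 member called, where 4.28% of 19946 genes passed. No member had groups that did not overlap in FPKM, where 3.52% of all genes did not overlap.

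For FLX against PBS, 0 of the 10 members passed, where 0.726% of all genes did, and 0 passed with PBS replicate 6 included, where 0.557% did. At an unadjusted p under 0.05 there were 7 members, against 11.1% of all genes, and DESeq2 called 1, Ier2, where it called 2.46% of all genes. The median log2 difference was -1.25 against -0.00 over all genes, and 9 of the 10 were below 0, all but Ier3. Without PBS replicate 1 the median was -0.59. By the exact two-sided permutation test, run on the members only, 1 member, Ier2, had an unadjusted p under 0.05 (p = 0.032). No member had FLX and PBS mice that did not overlap, against 2.92% of all genes. PBS replicates 2 and 3 lay within or below the range of the FLX mice for all 10 members.

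For FLX against Ctrl, 0 of the 10 members passed, where 3.67% of all genes did, and 0 passed in the fit with PBS replicate 6, where 1.77% did. At an unadjusted p under 0.05 there were 3 by edgeR, against 20.4% of all genes. The exact permutation test gave 6, but it was run on the members only, so no share of all genes stands beside it. DESeq2 called 1, Ier2, where it called 8.12% of all genes. In a fit of these 2 groups alone 3 members passed, where 3.75% of all genes did: Atf3 was higher and Junb and Ier2 were lower in FLX. The median log2 difference was -0.58 against -0.01 over all genes. Ier2 was the 1 member whose groups did not overlap, where 3.4% of all genes did not overlap and 0.731% did so with FLX lower. Each group serves in 2 of the 3 comparisons, so their values are not independent of each other.

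**Figure D2:**
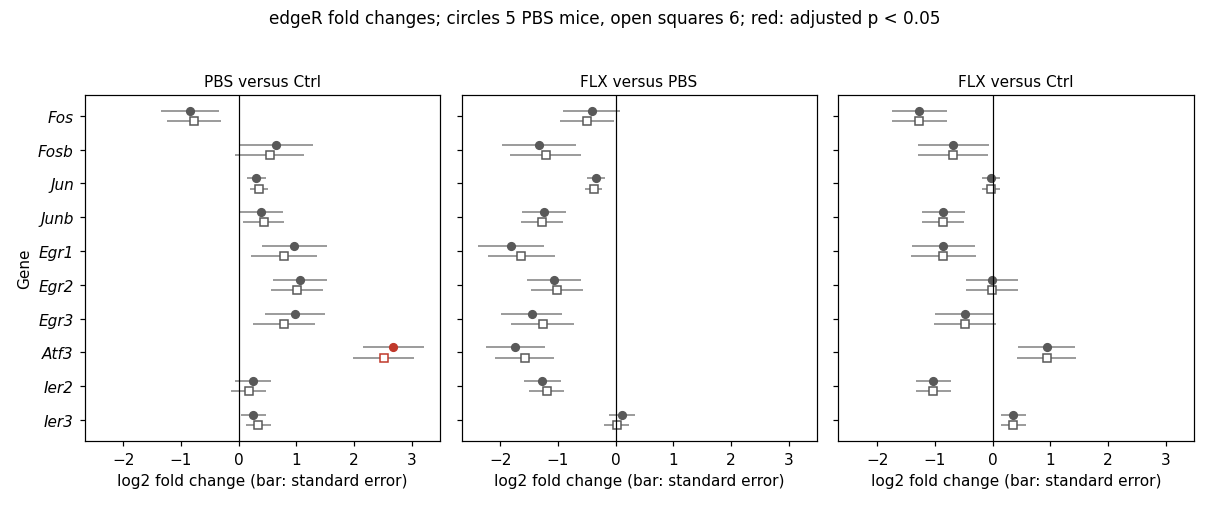
Log2 difference of each member in the 3 comparisons from the edgeR fit, with bars of 1 SE, circles for 5 PBS mice, open squares for all 6 and red where adjusted p is under 0.05. Only Atf3 in PBS against Ctrl passes (2.68, or 2.51 with all 6 PBS mice), and 9 of the 10 values for FLX against PBS lie below 0.

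The members spread widely among the PBS mice. The ratio of the highest to the lowest mouse had a median over the 10 members of 2.31 in Ctrl, 9.92 in PBS and 2.45 in FLX, and reached 36.0 for Fosb in PBS. The SD of the log2 values had a member median of 0.40 in Ctrl, 1.14 in PBS and 0.40 in FLX, against 0.21, 0.19 and 0.17 over the 12099 genes with a mean FPKM of at least 1. For the 7 members that also reached a mean of 1 FPKM the medians were 0.36, 1.11 and 0.43. PBS replicate 1 was the highest of the 5 PBS mice for all 10 members and replicate 2 the lowest for 9, all but Atf3. Among Ctrl mice, replicate 3 was the highest for 5 members and replicate 6 the lowest for 6.

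Markers of other cells were set beside this order of the PBS mice. PBS replicates 1 and 4, the mice with high Egr1, had neutrophil marker sums of 9.34 and 26.2 FPKM, against 7.24, 16.4 and 8.48 in replicates 2, 3 and 5. Of these 10 markers Ly6g, Mmp8, Camp and Cxcr2 had a mean under 0.1 FPKM. Of the 7 tested, 3 (Ngp, S100a8 and S100a9) passed as higher in PBS than in Ctrl, where 2.14% of all genes did. The 5 tubule injury markers summed to 120 and 154 FPKM in replicates 1 and 4 and to 157, 123 and 101 FPKM in replicates 2, 3 and 5, against 57 to 82.7 in Ctrl and 76.4 to 104 in FLX. Clu alone, which codes for clusterin, made up 93.3% to 97.7% of this sum in the PBS mice, and it passed as higher in PBS than in Ctrl (0.98 on the log2 scale, SE 0.13, edgeR adjusted p = 4.6e-04) and lower in FLX than in PBS (-0.69, SE 0.13, edgeR adjusted p = 0.022). The other 4 injury markers summed to 2.75 and 6.22 FPKM in PBS replicates 1 and 4, and to 4.62, 7.49 and 6.78 in replicates 2, 3 and 5. Vcam1 passed as higher in FLX than in Ctrl (0.83, SE 0.19, edgeR adjusted p = 0.027), as did the endothelial marker Tek (0.57, SE 0.10, edgeR adjusted p = 0.0060). The red cell markers summed to 295 and 1148 FPKM in replicates 1 and 4, and to 2129, 255 and 145 in the others. The brown fat markers summed to 96.2 and 16.2 FPKM in replicates 1 and 4 and to 766 in replicate 5, and Elovl3 of this list passed as higher in PBS than in Ctrl (edgeR adjusted p = 0.021). The 6 adrenal cortex markers summed to at most 3.57 FPKM in any PBS mouse, with Cyp11a1, Cyp11b1, Cyp11b2 and Cyp21a1 under 0.1 on average. Their part in the members' values was not tested.

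**Figure D3:**
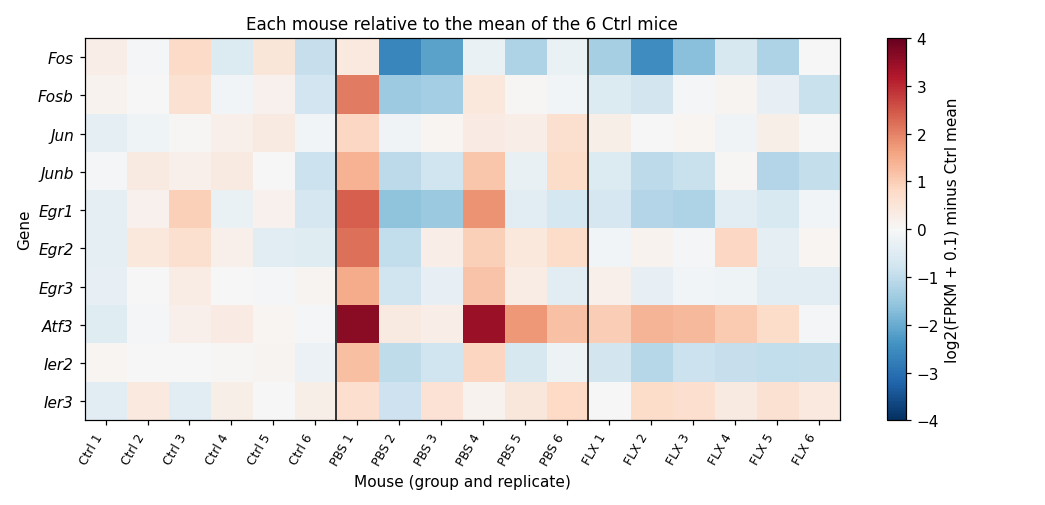
Each member's level in each of the 18 mice as log2(FPKM + 0.1) minus the mean of the Ctrl mice, members in rows and mice in columns by group. PBS replicates 1 and 4 are above the Ctrl mean for most members while PBS replicates 2 and 3 are below it for Fos, Fosb, Junb, Egr1, Egr3 and Ier2.

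Pooled over the 3 groups with group means removed, most members were high and low in the same mice. No r was computed for a single group, and the PBS mice, which spread most, weigh most in the pooled values. In FLX the members did not share 1 order: FLX replicate 6 was the highest mouse for 2 members and the lowest for 3. After removing group means over the 17 mice, the 45 pairs of members had a median Pearson r of 0.75 (0.076 to 0.917), and 34 pairs were above 0.5. With Fos as reference, 5 of 9 members passed a permutation test of r within groups after Benjamini-Hochberg adjustment over the 9: Egr1, Fosb, Junb, Ier2 and Egr2. Fos and Egr1 were closest (r = 0.881, rho = 0.902, permutation p = 2.0e-05 for r and 1.0e-05 for rho, the smallest that 100000 shuffles can give, adjusted p = 1.8e-04 and 9.0e-05), and r was 0.803 without PBS replicates 1 and 2, the mice farthest from the median of Fos. Fos with Fosb gave r = 0.760 and rho = 0.725 (permutation p = 0.0040 and 0.0072, adjusted p = 0.012 and 0.032) and fell to 0.581 without them. Fos with Egr2 (r = 0.685, rho = 0.539, permutation p = 0.012 and 0.045, adjusted p = 0.022 and 0.10) fell to 0.395 without these mice and rests on them. Atf3 did not pass with Fos (r = 0.499, rho = 0.287, permutation p = 0.19 and 0.37, adjusted p = 0.21 and 0.41), nor did Ier3 (r = 0.076, rho = -0.125, permutation p = 0.86 and 0.68, adjusted p = 0.86 and 0.68). Jun and Egr3 did not pass either. By rho only Egr1 and Fosb passed, and Junb and Ier2, which passed by r (0.749 and 0.745), fell to 0.583 and 0.548 without PBS replicates 1 and 2.

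**Figure D4:**
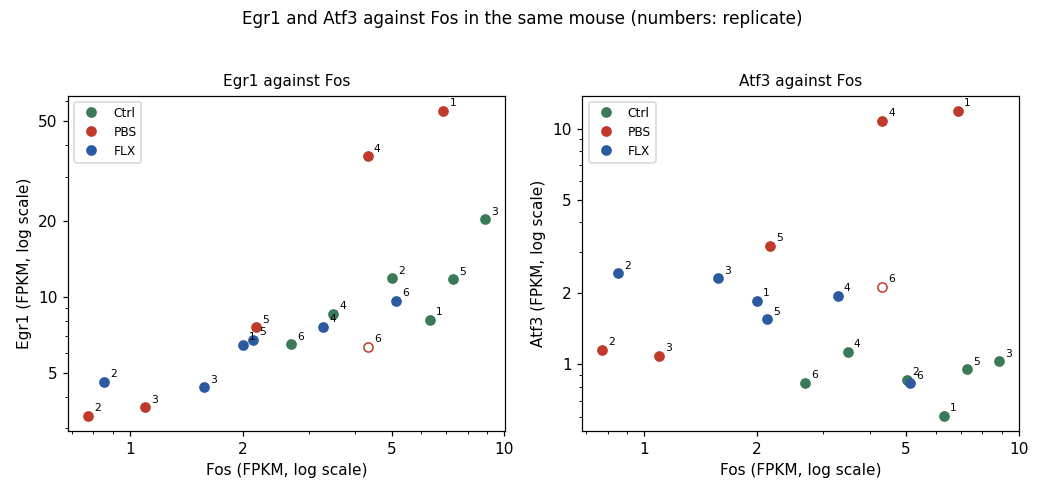
Egr1 and Atf3 against Fos in each mouse (FPKM, log axes), coloured by group, with an open symbol for PBS replicate 6. The ratios of Egr1 and of Atf3 to Fos were at least 3.31 and 0.988 in PBS replicates 1 to 5, above every Ctrl mouse, while PBS replicates 2, 3 and 5 lie left of every Ctrl mouse on the Fos axis.

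The make-up of the set, the ratio of one member to another in the same mouse, differed between groups for some pairs. Between PBS and Ctrl this was so although the levels of each member overlapped. These ratios were chosen after the values were seen, so they are a description. Atf3 over Fos was 0.0957 to 0.324 in the 6 Ctrl mice. It was 1.73, 1.49, 0.988, 2.50 and 1.46 in PBS replicates 1 to 5, and 0.494 in replicate 6. In FLX it ranged from 0.162, in replicate 6, to 2.85. All 6 PBS mice were above every Ctrl mouse, the high mice 1 and 4 and the low mice 2 and 3 alike. Egr1 over Fos was 1.28 to 2.44 in Ctrl and 3.31 to 8.35 in PBS replicates 1 to 5, which did not overlap, but replicate 6 at 1.46 lay within the Ctrl range. Ier2 over Jun was 0.966 to 1.55 in Ctrl and 0.501 to 0.672 in FLX, which did not overlap. Ier2 alone already did not overlap between these groups, so this ratio repeats that difference in level. In PBS replicates 1 to 5 Ier2 over Jun was 1.49, 0.621, 0.631, 1.70 and 0.606.

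Of the 45 ratios between members, 10 did not overlap between PBS and Ctrl, 7 of them with Atf3, and 8 did not overlap with PBS replicate 6 included. The other 3 were Fos over Junb, Fos over Egr1 and Fos over Egr2, all lower in PBS. For comparison, the ratio to Fos of 12037 other genes did not overlap between PBS and Ctrl for 0.532%, and the ratio to Atf3 for 14.5%. The 7 ratios with Atf3 were 7 of the 9 possible. With replicate 6 the shares were 0.274% and 13.9%. Between FLX and Ctrl 5 ratios did not overlap, 3 of them with Atf3 and 0 with Fos. The ratios of other genes did not overlap for 1.78% with Atf3 and 0.764% with Fos. The ratios of Ier2 with Jun, Atf3 and Ier3 were among the 5, and Ier2 alone did not overlap between these groups. No share of other genes was computed with Ier2. Between FLX and PBS 0 ratios between members did not overlap, where 0.0582% and 0.0166% of the other genes did not.

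Several of the genes most like the set were immediate early genes themselves. Over 12109 genes with a mean FPKM of at least 1 and 17 mice, with group means removed, the correlation with the mean of 7 scaled members was highest for Btg2 (r = 0.924), an antiproliferative early response gene, and Csrnp1 (0.924). Next came Bhlhe40 (0.893), a clock-linked repressor, Gpt2 (0.882), an alanine aminotransferase, Ifrd1 (0.882), the orphan receptor Nr4a1 (0.878), the small MAF factor Maff (0.874) and the zinc finger factor Klf6 (0.864). Btg2 was 11.7 to 18.8 FPKM in Ctrl and 11.9 to 19.6 in FLX, and 46.6 and 29.9 in PBS replicates 1 and 4. Nr4a1 was 5.07 to 10.8 FPKM in Ctrl, 8.47 to 11.7 in FLX and 34.4 and 18.4 in these mice, with 2.78 as the lowest PBS value. Both followed the members in having the same high PBS mice. These are likenesses over mice that share the high PBS replicates.

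The lists of the EGF receptor, the MAP kinase cascade and the SRF, TCF and CREB factors were pooled to 30 tested genes. Of these, 5 passed for PBS against Ctrl (16.7%, against 3.81% of all genes). For FLX against PBS 1 passed (3.33%, against 0.726%), and for FLX against Ctrl 3 passed (10%, against 3.67%). Among the 5, Erbb3 was lower in PBS and the others were higher. The lists were chosen with earlier results of these data known, so these shares are a description. Whether these genes act on the members here was not tested. Among 7 tested genes of the EGF receptor and its ligands, Hbegf, a ligand shed from the membrane that activates EGFR, was higher in PBS than in Ctrl (2.67 on the log2 scale, SE 0.51, edgeR adjusted p = 0.0071) at 16.1 ± 15.9 FPKM (SD, n = 5) against 2.61 ± 0.777 (SD, n = 6). It was lower in FLX than in PBS (-2.23, SE 0.51, edgeR adjusted p = 0.048), a call that was lost with PBS replicate 6 (edgeR adjusted p = 0.11). Erbb3, a receptor partner of ERBB2, was lower than in Ctrl in PBS (-0.87, SE 0.16, edgeR adjusted p = 0.0040) and in FLX (-1.01, SE 0.15, edgeR adjusted p = 0.0016). Of 14 MAP kinase cascade genes 1 passed in PBS against Ctrl, Map2k1, which codes for the kinase MEK1 (0.37, SE 0.07, edgeR adjusted p = 0.0063), and 0 passed in the other comparisons. The list medians were 0.19 and 0.08 for PBS against Ctrl.

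Of the 9 listed SRF, TCF and CREB factors, Srf and Crem were higher in PBS than in Ctrl. Binding to the members' promoters was not measured. Srf, the serum response factor, was 5.16 ± 0.388 FPKM in Ctrl (SD, n = 6) and 6.91 ± 1.34 in PBS (SD, n = 5), a log2 difference of 0.43 (SE 0.11, edgeR adjusted p = 0.033), and it was also higher in FLX than in Ctrl (0.47, SE 0.10, edgeR adjusted p = 0.021). Crem, which gives rise to cyclic AMP responsive activators and repressors, was 0.77 higher in PBS (SE 0.17, edgeR adjusted p = 0.019). Creb1, which codes for CREB, passed in FLX against Ctrl (0.46, SE 0.12, edgeR adjusted p = 0.037). None of the 9 passed in FLX against PBS, where the list median was 0.04.

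Among 11 tested AP-1 relatives and small MAF genes, 2 were higher in PBS than in Ctrl, where 2.14% of all genes were. Fosl2, a FOS family member that stays up longer than Fos, was 2.38 ± 0.883 FPKM in PBS (SD, n = 5) against 1.24 ± 0.276 in Ctrl (SD, n = 6), a log2 difference of 0.96 (SE 0.23, edgeR adjusted p = 0.023). Maff was higher in PBS than in Ctrl (2.09, SE 0.48, edgeR adjusted p = 0.019) and lower in FLX than in PBS (-2.29, SE 0.48, edgeR adjusted p = 0.034). Mafk was lower in FLX than in Ctrl (-0.61, SE 0.16, edgeR adjusted p = 0.039), a call that was lost with PBS replicate 6 in the fit (edgeR adjusted p = 0.054). Neither EGR corepressor passed: Nab2 was 2.74 ± 0.811 FPKM in Ctrl (SD, n = 6) and 5.15 ± 3.66 in PBS (SD, n = 5), with an edgeR adjusted p of 0.15, and Nab1 was 3.14 ± 1.04 and 3.21 ± 0.371.

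Among 32 other immediate early genes tested, 11 were higher and 1, Ccn1, was lower in PBS than in Ctrl. Of all genes tested, 3.81% passed in this comparison and 2.14% were higher. The list median was 0.56 on the log2 scale. Per1, a clock gene induced by glucocorticoids and cyclic AMP, was 2.98 ± 0.862 FPKM in Ctrl (SD, n = 6), 12.2 ± 3.79 in PBS (SD, n = 5) and 5.40 ± 1.54 in FLX (SD, n = 6), and it passed for PBS against Ctrl (2.06, SE 0.24, edgeR adjusted p = 1.3e-04) and for FLX against PBS (-1.28, SE 0.24, edgeR adjusted p = 0.017). Its lowest PBS mouse, at 7.56 FPKM, was above its highest Ctrl mouse, at 4.12. Gadd45g, a stress and growth arrest gene, was 20.4 ± 5.24 FPKM in Ctrl and 82.6 ± 34.9 in PBS (2.04, SE 0.26, edgeR adjusted p = 3.2e-04). Rhob, an immediate early small GTPase, was 0.997 higher in PBS than in Ctrl (SE 0.16, edgeR adjusted p = 0.0013) and 0.68 higher in FLX than in Ctrl (SE 0.15, edgeR adjusted p = 0.019). Ccn2, a matricellular growth factor gene, was higher in FLX than in PBS (1.25, SE 0.16, edgeR adjusted p = 0.0013) and higher in FLX than in Ctrl (0.83, SE 0.15, edgeR adjusted p = 0.0066), and both calls were lost with PBS replicate 6 in the fit (edgeR adjusted p = 0.11 and 0.084). For FLX against PBS 1 gene of this list was higher and 3 were lower, Per1, Gadd45b and Plk3, where 0.726% of all genes passed. For FLX against Ctrl 5 were higher and 1 was lower, where 3.67% of all genes passed. With PBS replicate 6 these counts were 0 and 2, with Plk3 lost (edgeR adjusted p = 0.098), and 4 and 0. Ccn1, Gadd45b and Plk3 were named after their values were seen.

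Of 18 textbook AP-1 and EGR1 targets, 2 were higher and 1 was lower in PBS than in Ctrl, where 3.81% of all genes passed. Spp1, which encodes osteopontin, was 362 ± 90.2 FPKM in Ctrl (SD, n = 6) and 676 ± 159 in PBS (SD, n = 5), a log2 difference of 0.91 (SE 0.18, edgeR adjusted p = 0.0080). Mmp3, the matrix protease stromelysin, was below 1 FPKM in both groups and 2.61 higher in PBS (SE 0.61, edgeR adjusted p = 0.023). F3, tissue factor, was lower in PBS by a log2 difference of -0.54 (SE 0.13, edgeR adjusted p = 0.023). For FLX against PBS 0 of the 18 passed, against 0.726% of all genes, and the list median was 0.01. For FLX against Ctrl Mmp3 was higher (3.49, SE 0.61, edgeR adjusted p = 0.0060) and F3 was lower (-0.46, SE 0.12, edgeR adjusted p = 0.041), and the F3 call was lost with PBS replicate 6 in the fit (edgeR adjusted p = 0.061).

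By level, the order of the members in Ctrl kidney was Ier3, Junb, Ier2, Jun, Egr1, Fos, Atf3, Egr2, Fosb and Egr3, in FPKM, which is per length. Fos and Atf3 were neighbours in this order whose ranges did not overlap in Ctrl, and the ranges of all other neighbours overlapped there. In PBS the mean of Atf3 (5.62 ± 5.31 FPKM, SD, n = 5) was above that of Fos (3.05 ± 2.55 FPKM, SD, n = 5), and 4 of the 5 mice showed this order. In FLX Fos was again above Atf3 on average (2.50 ± 1.52 against 1.83 ± 0.583 FPKM, SD, n = 6), with overlapping ranges and 4 of the 6 mice in this order.

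The members also shared a compact gene structure that the choice by symbol did not use. All 10 had at most 4 exons, as had 23.1% of the 15574 tested genes with a principal protein-coding transcript. Their median was 2 exons and a span of 3852 bases, against 9 exons and 21498 bases over those genes. Jun, Junb and Ier2 have 1 exon. Ier2 and Junb lie on the same strand of chromosome 8 with starts 315579 bases apart.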

How the data were processed

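Whole right kidneys of 18 mice were sequenced as paired-end poly(A) RNA. The authors cleaned reads with fastp, mapped them to GRCm38 with HISAT-3N and estimated expression with StringTie, and the submitters' processing notes also list cutadapt 1.9, HISAT2 2.0.4, UMI-tools, StringTie 1.3.4d, DESeq2 and edgeR, without roles. The deposited table gives FPKM and estimated counts (whole numbers) per gene and mouse, but the counting tool and strand setting are not given in the sources used here, so reads of an overlapping antisense gene cannot be told apart. The table's other columns, gene annotation, were used for names and positions.

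Groups were taken from the labels. Estimated counts were tested in edgeR 4.0.16 (R 4.3.3; TMM, filterByExpr, quasi-likelihood test, Benjamini-Hochberg over 20251 genes, called at adjusted p under 0.05) in a fit of all 3 groups without PBS replicate 6, and again with it (19946 genes). Each of the 10 members was also tested in the 3 comparisons by exact permutation of mean log2(FPKM + 0.1), unadjusted, and relations with Fos by 100000 shuffles within groups. Alternatives were limma 3.58.1 and DESeq2 1.42.0, other scalings, filters and mice. On simulated counts for PBS against Ctrl (19656 genes) the test recovered 57.6% of 2-fold and 80.6% of 4-fold changes. Each simulated gene had the same spread in all groups, unlike the members, so these shares do not describe the members. The labels number separate mice within a group. The members and lists were chosen with earlier results of these data known. All 10 members are named. Of other lists the genes passing in any comparison are named, at most the 4 with the smallest adjusted p, or the 2 highest in FPKM where none passed, and the 8 genes most like the members. Egr3 rests on the fewest counts, 10 in 1 mouse.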

Additional observations from a re-analysis of the deposited data

Results flagged for a closer look

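A mouse was taken as standing apart where its gap to the nearest mouse of its group was more than Dixon's 95% limit of the whole range of the group. Of 40 sets of values tested, 5 passed. Chance alone passes about 1 in 20 independent sets of normal values. These sets are not independent, as PBS values enter with 5 and with 6 mice and the members vary together. The 5 therefore cannot be set against that rate. PBS replicate 1 stood apart for Fosb at 1.56 FPKM, with the next mouse at 0.424 and the lowest at 0.0433, a gap of 0.749 of the range with 5 and with 6 PBS mice. It stood apart for Egr2 among the 6 PBS mice at 2.12 FPKM, with the next at 0.840, a gap of 0.648 of the range. FLX replicate 4 stood apart for Egr2 at 0.752 FPKM, with the next at 0.426, a gap of 0.668 of the range. Ctrl replicate 6 stood apart for Ier2 as the lowest at 11.6 FPKM, with the next at 13.8, a gap of 0.662 of the range, and remained above every FLX mouse.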

How the results depend on the processing

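The Atf3 call for PBS against Ctrl was lost with limma on log2(FPKM + 1), where 0 members passed (1.37, adjusted p = 0.066), and with the replicate number as a block, where 0 members passed (2.17, edgeR adjusted p = 0.086). It passed without any 1 mouse, with log2 differences of 2.21 to 2.94 and 1 member called each time. For FLX against PBS, DESeq2 called 1 member, Ier2, and leaving out 1 mouse gave 0 to 1, with Ier2 called without PBS replicate 2, 3 or 5. For FLX against Ctrl, DESeq2 called 1, a fit of the 2 groups alone called 3, and leaving out 1 mouse gave 0 to 1, with Ier2 called without Ctrl replicate 3 or PBS replicate 1 or 2. Members whose groups did not overlap went from 0 to 1 for PBS against Ctrl, with Atf3 counted without Ctrl replicate 4 or PBS replicate 3, and from 1 to 2 for FLX against Ctrl, with Atf3 counted without FLX replicate 6. Values that had not passed the test changed sign. Fosb in PBS against Ctrl was -0.057 with limma on log2(FPKM + 0.1), -0.18 with the replicate block and -0.55 to 0.95 without 1 mouse. Ier2 there was -0.078 and -0.057 with limma at pseudocounts 0.1 and 1, -0.018 with the block and -0.16 to 0.44 without 1 mouse. Junb there was -0.013 to 0.60 without 1 mouse. In FLX against PBS, Fos was -0.75 to 0.12 and Ier3 was -0.078 to 0.23 without 1 mouse. In FLX against Ctrl, Jun was 0.065 and 0.060 with limma, 0.079 with only FLX replicates 1 and 2, and -0.096 to 0.063 without 1 mouse, and Egr2 was 0.080 and 0.024 with limma and -0.21 to 0.16 without 1 mouse. Over all genes the median FLX against Ctrl difference was 0.063 and 0.029 with limma at pseudocounts 0.1 and 1. In the main edgeR fit it was -0.009. The cause of the sign changes was not tested. Fos with Egr3 passed on log2(FPKM + 1) (r = 0.658, permutation p adjusted 0.050).

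Same-numbered mice of different groups did not deviate together (r from -0.19 to 0.20 over genes). These r values compare single mice after group means were removed, so they cannot show whether the numbers carry an order of processing. The replicate block moved the calls over all genes from 772 to 419 for PBS against Ctrl. It moved them from 147 to 67 for FLX against PBS and from 744 to 258 for FLX against Ctrl. DESeq2 gave 1424, 498 and 1645. With upper-quartile scaling 314 genes were higher and 449 lower in PBS than in Ctrl, against 433 and 339 with TMM. With only FLX replicates 1 and 2, 0 and 4 genes passed for FLX against PBS and against Ctrl. Depth limits Fosb, Egr2 and Egr3 most.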
